A study of Homo sapiens with 2 samples.

Results

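The genes described here are 10 genes for chaperones and J-proteins of the endoplasmic reticulum (ER), out of 61806 genes in the count table. They were HSPA5, HSP90B1, HYOU1, CALR, CANX, DNAJB9, DNAJB11, DNAJC3, SDF2L1 and MANF, chosen by gene name for their place in the ER. The choice was made with earlier results of these data known. Each name matched 1 gene in both tables of FPKM (fragments per kilobase of gene, scaled to library depth) and 1 Ensembl identifier in the count table. HEL is a human erythroleukemia cell line, and the genotype of the samples is given as wild type. One culture of it received L1 at 1 µM for 24 h, and the control culture received the vehicle, 0.5% DMSO, for 24 h. L1 is a derivative of diindolylmethane, a compound formed from an ingredient of cruciferous vegetables. Each condition had 1 library, so no test was run, no difference below has a replicate check, and an effect of L1 cannot be told apart from variation between cultures or libraries.

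The libraries held 32556872 counts for DMSO and 27135647 for L1. Counts were scaled by TMM (trimmed mean of M-values), a method that sets the libraries on a common scale from the bulk of their genes. Scaled counts are given as CPM, the counts of a gene per 1000000 counts of a library. All 11 markers of the erythroid and megakaryocytic lineage were detected, GATA1 with 6469 counts for DMSO and 5923 for L1 and ITGA2B with 40168 and 35288. Of 9 markers of T, B, myeloid, epithelial, liver and stromal cells, 7 were at 0 in both libraries, and CD14 and COL1A1 had 0 counts for DMSO and 5 for L1. In a bulk library, a change in RNA per cell cannot be told apart from a change in the share of cells that carry the RNA.

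Proteins that enter the secretory pathway fold inside the ER with the help of these chaperones. HSPA5, also called BiP, is the HSP70 of the ER and binds unfolded chains in a cycle driven by ATP. J-proteins such as DNAJB9, DNAJB11 and DNAJC3 bring clients to it and stimulate its ATPase, while HYOU1 releases its nucleotide. HSP90B1, also called GRP94, is the HSP90 of the ER, and CALR and CANX are lectins that hold glycoproteins through their sugar chains. When unfolded proteins accumulate, the sensors of the unfolded protein response act through the transcription factors ATF6 and XBP1, which bind ER stress elements in the promoters of many of these genes. The study asked whether L1 acts through ER stress, and HSPA5 was among the genes it followed.

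The ER stress elements are shown first, since they are the sequence feature that is known for this gene group. The 10 genes had 13 promoter windows in RefSeq (GRCh38.p14), each from 250 bases before to 50 bases after an annotated transcript start. The letters searched on both strands were CCAAT, 9 bases of any kind and CCACG for the ER stress element (ERSE), ATTGG, 1 base of any kind and CCACG for ERSE-II, and TGACGTGG for the core of the unfolded protein response element (UPRE). ERSE matches were found in 4 of the 10 genes, HSPA5, HSP90B1, CALR and CANX. Of all 27305 genes with windows, 0.0916% held an ERSE match (0.0769% of 35116 windows). ERSE-II matches were found in HYOU1 and SDF2L1, and in 0.0696% of all genes (0.0541% of windows). The UPRE core was found in HYOU1 alone among the 10 genes, overlapping the upstream ERSE-II match. Of all genes, 0.927% held it (0.729% of windows). These elements were already known for this gene group, so the matches describe the sequences and are no test of enrichment. No exact match was found for DNAJB9, DNAJB11, DNAJC3 and MANF, which says only that these letters are not in their windows.

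The HSPA5 promoter (chr9:125241344-125241593, GRCh38.p14, minus strand) is printed for the 250 bases before the start because HSPA5 had the highest log2 ratio of the 10 genes. The capitals mark the fixed letters of its exact ERSE match, from base -66 to base -48 of the transcript start. Near matches were not searched and stay in lower case.
HSPA5: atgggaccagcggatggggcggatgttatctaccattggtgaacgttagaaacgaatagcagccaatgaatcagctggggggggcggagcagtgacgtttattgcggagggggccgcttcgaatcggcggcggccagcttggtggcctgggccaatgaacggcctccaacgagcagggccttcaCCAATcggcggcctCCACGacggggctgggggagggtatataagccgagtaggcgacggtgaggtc

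The HYOU1 promoter (chr11:119057206-119057455, GRCh38.p14, minus strand) is printed for the same stretch because it holds 2 ERSE-II matches, both in reverse orientation, and the UPRE core, all in capitals. The ERSE-II matches lay from base -185 to -175 and from base -79 to -69.
HYOU1: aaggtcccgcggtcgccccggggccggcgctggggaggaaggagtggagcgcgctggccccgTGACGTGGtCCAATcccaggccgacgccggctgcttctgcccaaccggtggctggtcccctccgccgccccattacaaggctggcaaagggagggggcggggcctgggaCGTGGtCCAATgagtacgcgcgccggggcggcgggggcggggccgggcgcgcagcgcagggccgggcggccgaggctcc

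The other matches are printed with 5 bases on each side, in the direction of the gene and with the fixed letters in capitals, to show how far the elements of genes with unlike log2 ratios resemble each other. The sites were chr12:103930216-103930234 and chr12:103930321-103930339 for HSP90B1, chr19:12938384-12938402 for CALR, chr22:21642114-21642124 for SDF2L1 and chr5:179698778-179698796 for CANX. These genes all lie on the plus strand. The proximal HSP90B1 match and those of CALR and SDF2L1 were in reverse orientation. The CANX site was 1 genomic site that 3 of the 4 CANX windows shared. In GENCODE release 29 the sites of HSP90B1 and CANX overlap annotated exons of those genes, and the other sites overlap none.
HSP90B1, distal: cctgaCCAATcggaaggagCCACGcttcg
HSP90B1, proximal: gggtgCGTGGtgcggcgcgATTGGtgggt
CALR: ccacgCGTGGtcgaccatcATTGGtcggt
SDF2L1: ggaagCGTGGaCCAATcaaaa
CANX: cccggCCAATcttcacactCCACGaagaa

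**Figure D1:**
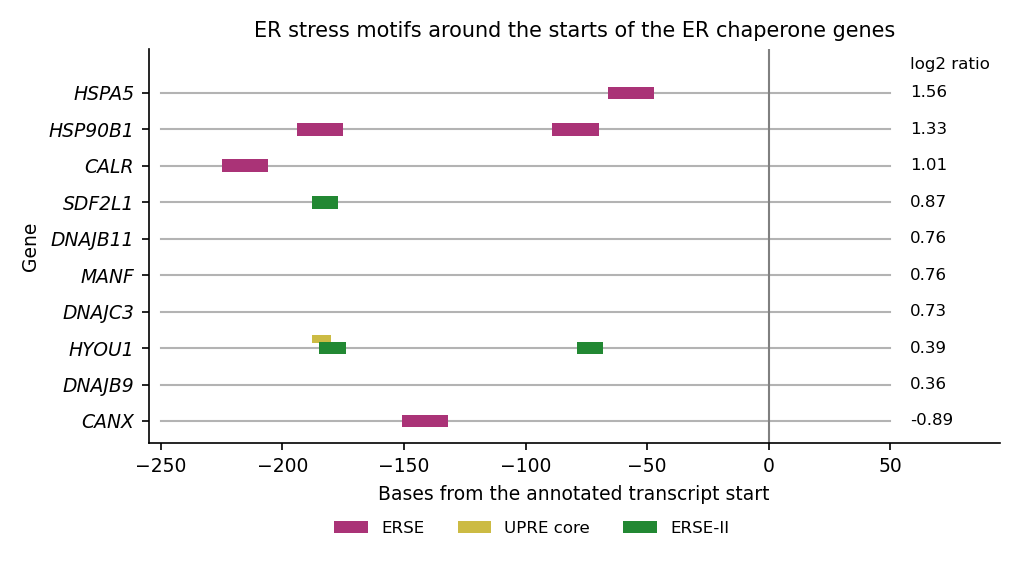
Motif matches in the window from 250 bases before to 50 bases after the transcript start of each gene; the horizontal axis gives bases from the start, each row is a gene in order of its log2 ratio of L1 over DMSO (printed at the right), and coloured bars are matches to ERSE, ERSE-II and the UPRE core. HSPA5, HSP90B1 and CALR (log2 ratios 1.56, 1.33 and 1.01) hold an ERSE, as does CANX (-0.89, drawn for 1 of its windows), and the genes with no match are DNAJB11, MANF and DNAJC3 (0.73 to 0.76) and DNAJB9 (0.36).

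After L1 treatment, 9 of the 10 chaperone genes were higher in the L1 library than in the DMSO library and CANX was lower. HSPA5 was 2.94-fold, HSP90B1 2.52-fold and CALR 2.01-fold higher, whereas CANX stood at 0.538 of its DMSO value. The median log2 ratio of the 10 genes was 0.76, and that of the 18123 genes with at least 10 counts in 1 library was -0.0040. Ratios across many genes carry a prior count of 2, while the value of a single gene carries none and has an exact 95% interval (Clopper-Pearson) from its counts, which covers counting error only.

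Of the 10 genes, 3 were at least 2-fold higher, against 7.12% of all genes kept. None was at least 2-fold lower, against 4.83%. All 10 had over 100 counts in a library, and among the 12365 genes of such depth 3.13% were 2-fold higher or more and 2.92% were 2-fold lower or more. At 1.5-fold, 7 of the 10 were higher, against 13.8% of all genes kept and 7.38% of those with at least 100 counts. CANX was the 1 gene at least 1.5-fold lower, against 11.4% of all genes kept and 8.22% of those with at least 100 counts. A log2 ratio above 0 was found for 9 of the 10, and for 49.6% of all genes kept and 46.4% of those with at least 100 counts. The whole counting interval lay past 2-fold higher for HSPA5 and HSP90B1, against 3.02% of all genes kept and 2.26% of those with at least 100 counts. That of CALR reached below 2-fold.

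**Figure D2:**
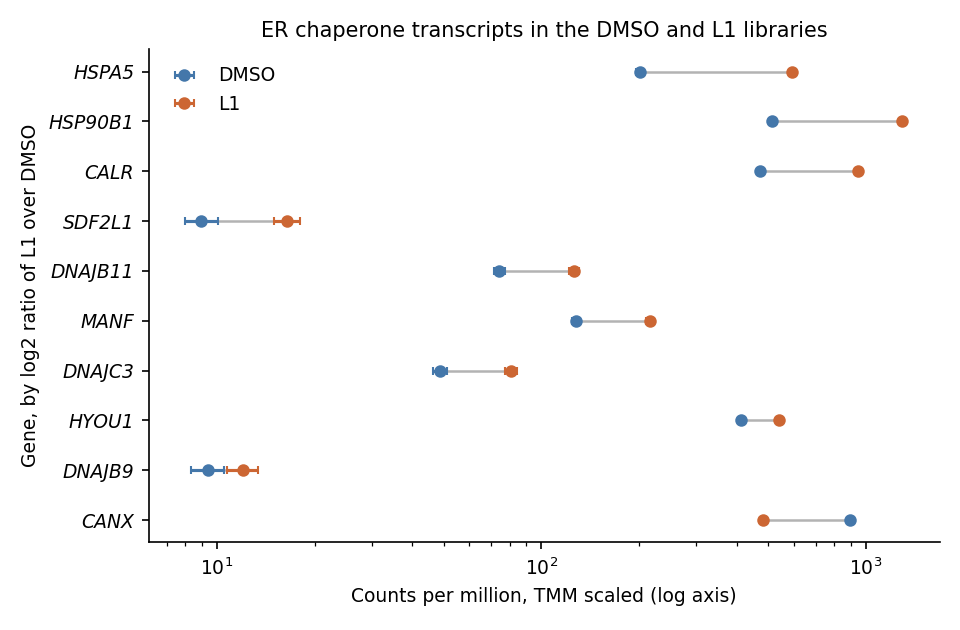
CPM after TMM scaling (log axis) for each chaperone gene in the DMSO (blue) and L1 (orange) library, with exact 95% Poisson intervals; each row is a gene. The points span from 8.97 for SDF2L1 in DMSO to 1296 for HSP90B1 in L1, and CANX is the single gene whose DMSO point lies to the right.

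HSPA5 (ENSG00000044574, chr9:125234853-125241330, GRCh38, GENCODE release 29) encodes the ER HSP70. Its 6430 counts with DMSO and 16325 with L1 came to 201 and 591 CPM. The L1 value was the higher, with a log2 ratio of 1.56 (95% interval 1.52 to 1.60). Of all genes kept, 3.23% had a higher log2 ratio. Of its 31-base words, 18.8% also occur in transcripts of other genes, chiefly the processed pseudogenes AL354702.1 with 4 counts in each library and AC105250.1 with 6 and 11. With these added, the HSPA5 log2 ratio was again 1.56.

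HSP90B1 (ENSG00000166598, chr12:103930107-103953645) encodes the ER HSP90, which folds integrins and Toll-like receptors among other clients. It counted 16469 reads with DMSO and 35776 with L1, or 515 and 1296 CPM. It was higher with L1, at a log2 ratio of 1.33 (95% interval 1.31 to 1.36) and an interval that lay wholly past 2-fold. Its processed pseudogene HSP90B2P, which holds 10.0% of its words, had 24 and 54 counts, and the overlapping gene C12orf73 on the opposite strand had 433 and 457.

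HYOU1 (ENSG00000149428, chr11:119044189-119057202) encodes a large relative of HSP70 that exchanges nucleotide on HSPA5. It counted 13243 reads with DMSO and 14935 with L1, or 414 and 541 CPM. Its log2 ratio of 0.39 (95% interval 0.35 to 0.42) was higher with L1 but below 1.5-fold. The antisense gene AP003392.3 on the opposite strand had 166 counts with DMSO and 235 with L1.

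CALR (ENSG00000179218, chr19:12938578-12944489) encodes calreticulin, a soluble lectin of the ER lumen that also binds calcium. It counted 15101 reads with DMSO and 26153 with L1, or 472 and 947 CPM, at a log2 ratio of 1.01 (95% interval 0.98 to 1.03). The L1 value was thus close to 2-fold, and the interval held values on each side of it. The antisense gene AC092069.1 on the opposite strand had 83 counts with DMSO and 181 with L1, and with these added the log2 ratio of CALR was again 1.01. With size factors of DESeq2 its log2 ratio was 0.97, which left 2 of the 10 genes at least 2-fold higher.

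CANX (ENSG00000127022, chr5:179678628-179730925) encodes calnexin, the membrane-bound counterpart of CALR. It counted 28632 reads with DMSO and 13290 with L1, or 895 and 481 CPM. It was the 1 gene of the 10 that was lower with L1, at a log2 ratio of -0.89 (95% interval -0.92 to -0.86), and 5.76% of all genes kept had a lower one. Under 4 scalings its log2 ratio ran from -0.93 to -0.84. Of its 31-base words, 3.65% occur in other genes, and the overlapping gene CBY3 on the opposite strand had 2 counts with DMSO and 0 with L1. Its share of the summed counts of the 10 genes was 32.4% with DMSO and 11.2% with L1.

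The lectins CALR and CANX differed in opposite directions, and their summed counts were 43733 with DMSO and 39443 with L1, a log2 ratio of 0.06 (95% interval 0.04 to 0.08). Per length, the FPKM of CALR was 2.59 times that of CANX with DMSO and 9.67 times with L1. With the length of the principal transcript in place of the authors' gene length, these ratios were 1.18 and 4.41. PDIA3, the disulfide isomerase that works with both lectins, had a log2 ratio of 0.59, which lay 0.42 below that of CALR (95% interval 0.38 to 0.46) and 1.48 above that of CANX, a difference of CANX minus PDIA3 of -1.48 (95% interval -1.52 to -1.44). The intervals of such differences are Wald intervals from the counts, do not depend on the scaling of the libraries and cover counting error only.

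DNAJB11 (ENSG00000090520, chr3:186567403-186585800) encodes a soluble J-protein that binds clients before they pass to HSPA5. Its counts were 2377 with DMSO and 3478 with L1, 74.3 and 126 CPM, and the log2 ratio was 0.76 (95% interval 0.69 to 0.84). TBCCD1, which overlaps it on the opposite strand, had 651 and 396 counts. With overlapping genes of the opposite strand summed, the log2 ratio of DNAJB11 was 0.57, and the strand setting of the counting is not given in the sources used here.

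DNAJC3 (ENSG00000102580, chr13:95677139-95794989) encodes a J-protein of the ER lumen known as an inhibitor of eIF2α kinases. It counted 1560 reads with DMSO and 2226 with L1, 48.7 and 80.6 CPM, at a log2 ratio of 0.73 (95% interval 0.63 to 0.82). No overlapping gene was found for it. DNAJB9 (ENSG00000128590, chr7:108569568-108574850) encodes a J-protein that holds HSPA5 on the sensor IRE1. It had few counts, 300 with DMSO and 332 with L1, 9.37 and 12.0 CPM, and its log2 ratio of 0.36 had a wide interval, from 0.13 to 0.59. DNAJB9 is overlapped on the opposite strand by THAP5, with 1165 and 935 counts, and PNPLA8, with 743 and 825. Summed with both, its log2 ratio was 0.14, and summed with THAP5 alone it was 0.0036, so the value of DNAJB9 is uncertain. Over the 3 J-proteins the counts summed to 4237 and 6036, a log2 ratio of 0.72 (95% interval 0.67 to 0.78).

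SDF2L1 (ENSG00000128228, chr22:21642261-21644298) encodes a partner of DNAJB11 in the ER lumen. With 287 counts for DMSO and 454 for L1, or 8.97 and 16.4 CPM, its value rests on few reads. Its log2 ratio was 0.87 (95% interval 0.66 to 1.09), so that 2-fold lay inside the interval. It shares no 31-base word with any other gene. MANF (ENSG00000145050, chr3:51385047-51389397) encodes a small secreted and ER-resident protein that binds HSPA5. It counted 4095 reads with DMSO and 5970 with L1, 128 and 216 CPM, at a log2 ratio of 0.76 (95% interval 0.70 to 0.81).

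**Figure D3:**
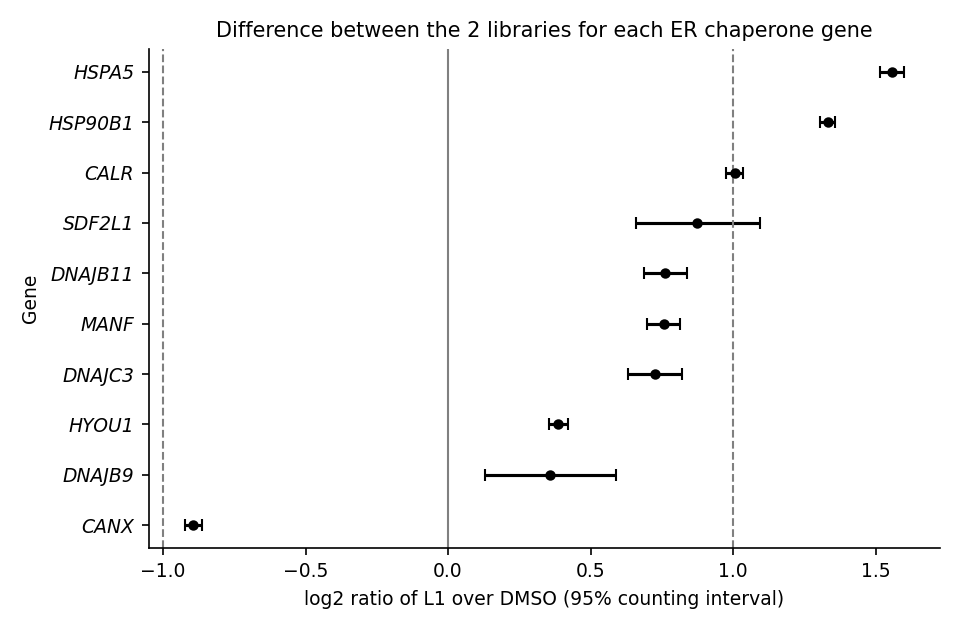
The log2 ratio of L1 over DMSO for each chaperone gene (horizontal axis, points) with its exact 95% counting interval (bars); dashed lines mark 2-fold and the solid line no difference. HSPA5 (1.56) and HSP90B1 (1.33) lie past 2-fold with their whole intervals, and CANX (-0.89) lies alone to the left.

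By counting error alone, the 10 genes did not differ between the libraries by a common factor. Among the 45 pairs of these genes, the 95% interval of the difference of log2 ratios excluded 0 for 37, without adjustment for the number of pairs. Such intervals are narrow at high counts and leave out variation between cultures. Pairs of other genes were not counted, so the number is not read as a trait of these genes. In order of their log2 ratios, HSPA5 lay 0.22 above HSP90B1 (95% interval 0.18 to 0.27), which lay 0.33 above CALR (0.29 to 0.37). CALR, SDF2L1, DNAJB11, MANF and DNAJC3 followed, and the intervals of neighbours in this stretch included 0. Farther apart, CALR lay 0.24 above DNAJB11 (0.16 to 0.32), 0.25 above MANF (0.18 to 0.31) and 0.28 above DNAJC3 (0.18 to 0.38). DNAJC3 lay 0.34 above HYOU1 (95% interval 0.24 to 0.44), HYOU1 and DNAJB9 could not be told apart (difference 0.03, interval -0.20 to 0.26), and DNAJB9 lay 1.25 above CANX (1.03 to 1.48). In all, 4 of the 9 neighbouring pairs differed beyond counting error.

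The makeup of the group differed between the libraries, in counts that also depend on gene length. Together the 10 genes took 0.272% of all unscaled counts with DMSO and 0.438% with L1. With TMM scaling, which differs from these shares of the total, the log2 ratio of the sum was 0.64 (95% interval 0.63 to 0.65). Without CANX, the log2 ratio of the sum was 1.03 (1.02 to 1.05). HSPA5 made up 7.27% of the counts of the group with DMSO and 13.7% with L1, and HSP90B1 18.6% and 30.1%. HYOU1 went from 15.0% to 12.6%. On the deposited FPKM, HSPA5 stood at 0.507 times the level of its exchange factor HYOU1 with DMSO and at 1.14 times with L1. The FPKM of HSPA5 was 3.89 times that of DNAJB11 with DMSO and 6.75 times with L1, and 3.53 and 6.28 times that of DNAJC3. Per principal transcript these ratios were 1.66 and 2.88 for DNAJB11 and 5.90 and 10.5 for DNAJC3, so the order of both J-proteins depends on the length used, while HSPA5 was the higher in each case.

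Levels between genes can be set side by side only per length. On the deposited FPKM, CALR was the highest of the 10 in both libraries, 170 with DMSO (95% Poisson interval 167 to 172) and 340.3 with L1 (336 to 344). With DMSO it was followed by CANX (65.4), HYOU1 (61.0), MANF (60.2), HSP90B1 (39.6) and HSPA5 (30.98), and HYOU1 and MANF overlapped in their intervals. DNAJC3 (8.78), SDF2L1 (8.53), DNAJB11 (7.97) and DNAJB9 (3.72) had the lowest FPKM with DMSO, and the intervals of SDF2L1 overlapped those of DNAJC3 and DNAJB11. With L1 the order of FPKM was CALR, MANF (102), HSP90B1 (99.6), HSPA5 (91.2), HYOU1 (79.8), CANX (35.2), SDF2L1 (15.6), DNAJC3 (14.5), DNAJB11 (13.5) and DNAJB9 (4.77). CANX thus had rank 2 in FPKM with DMSO and rank 6 with L1. With L1 the intervals of MANF and HSP90B1 overlapped, as did those of SDF2L1 and DNAJC3 and those of DNAJC3 and DNAJB11.

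This order depends on the gene length used. The length that the authors' FPKM implies was 6487 bases for HSPA5, 13005 for HSP90B1, 13673 for CANX and 9323 for DNAJB11, while the annotated exons of GENCODE release 29 sum to 3908, 4695, 6235 and 5731 bases. For the other 6 genes the implied length was between that of SDF2L1, 1052 bases against 1099 annotated, and that of HYOU1, 6780 against 7694. With CPM per kilobase of the principal transcript (2858 bases for HSP90B1), HSP90B1 had rank 3 of the 10 with DMSO, at 180, after CALR at 248 and CANX at 210. With L1 it had rank 2, at 453, after CALR at 498. CALR was the highest and DNAJB9 the lowest of the 10 in both libraries by either measure. The ratios of L1 over DMSO of a gene do not depend on its length.

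**Figure D4:**
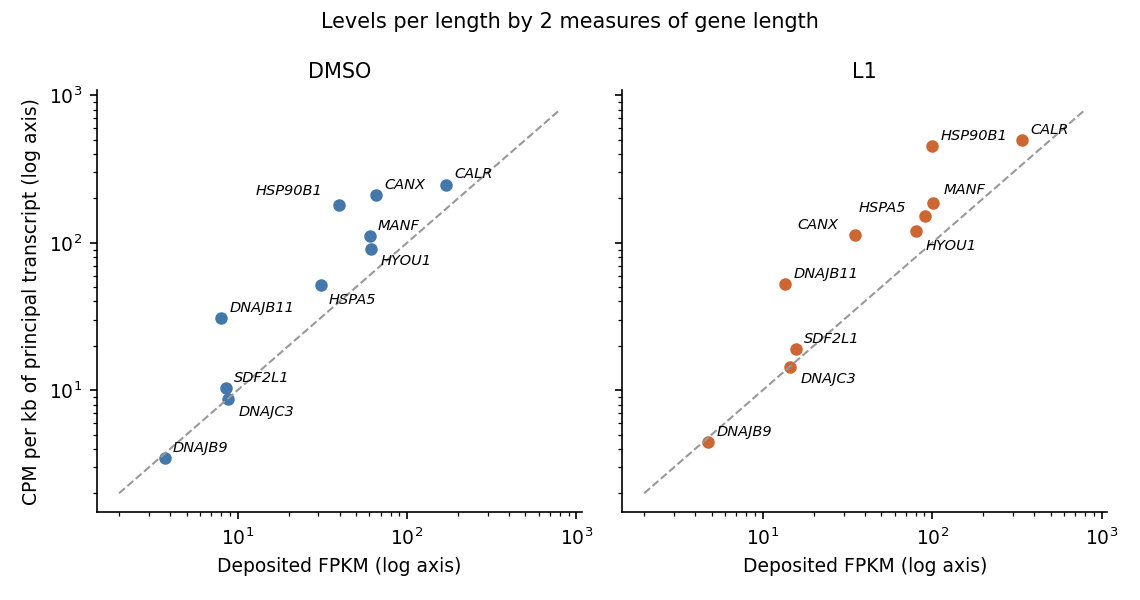
Level of each chaperone gene per length in the DMSO (left) and L1 (right) library, as deposited FPKM (horizontal log axis) and as CPM per kilobase of the principal transcript (vertical log axis); the dashed line marks equal values. HSP90B1, CANX and DNAJB11 lie farthest above the line in both panels, at 180, 210 and 30.98 on the vertical axis with DMSO against FPKM of 39.6, 65.4 and 7.97.

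Relatives of these chaperones in other compartments were set beside them, with unadjusted intervals for 11 pairs. The log2 ratio of HSPA5 lay 0.73 above that of HSPA8, the constitutive HSP70 of the cytosol (95% interval 0.69 to 0.78), and 1.35 above that of the mitochondrial HSPA9 (1.30 to 1.40). HSP90B1 lay 0.72 above the cytosolic HSP90AA1 (0.68 to 0.75), 1.10 above HSP90AB1 (1.07 to 1.13) and 1.39 above the mitochondrial TRAP1 (1.32 to 1.46). HYOU1 went the other way, since the log2 ratio of its cytosolic relative HSPH1 was 1.19, and the difference of HYOU1 minus HSPH1 was -0.81 (-0.87 to -0.75). HYOU1 and HSPA4, another cytosolic relative, could not be told apart (difference -0.0072, interval -0.060 to 0.046), nor could HYOU1 and SIL1, the other nucleotide exchange factor for HSPA5 (difference -0.040, interval -0.20 to 0.12). SDF2L1 lay 0.67 above its close relative SDF2 (0.40 to 0.93), which had 603 counts with DMSO and 601 with L1. CDNF, the relative of MANF, had 8 and 11 counts, too few to compare.

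Other genes of ER protein folding were described by lists written from general knowledge, with earlier results of these data known. None of the 8 other J-proteins of the ER was past 2-fold, and their median log2 ratio was -0.13. The farthest from 0 among them were DNAJC25 (0.50), DNAJB14 (-0.44) and DNAJC18 (-0.28), and SEC63, the J-protein of the translocon, had 0.02. Of 12 relatives and cofactors, 2 were at least 2-fold higher and none lower, with a median of 0.31. CRELD2, an ER protein of the stress response, had 225 counts with DMSO and 393 with L1 (log2 ratio 1.02, 95% interval 0.78 to 1.26), and CLGN, a relative of CANX, had 0 and 29 counts. CLGN fell outside the naming rule by its low counts and was named after its values were seen. Among the genes of that list with at least 100 counts, CNPY3 (-0.49) and SIL1 (0.43) were the next farthest from 0.

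None of the 8 enzymes and lectins of the calnexin cycle was past 2-fold, and their median was 0.11. PDIA3 (0.59), UGGT2, a sensor of folding that adds glucose back (-0.48), and MLEC (0.44) were farthest from 0. None of the 8 prolyl isomerases was past 2-fold, with a median of -0.17, and FKBP9 (-0.63), FKBP10 (-0.47) and PPIB (0.46) were the farthest. None of the 15 disulfide isomerases and oxidases was past 2-fold, with a median of 0.12 and a range from -0.41 to 0.52. ERP44 (0.52), PDIA6 (0.46) and PDIA5 (0.45) were the farthest from 0 in that list.

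Of 10 sensors and factors of the unfolded protein response, 2 were at least 2-fold higher and none lower, with a median of 0.08. The 2 were DDIT3 (1.63, 95% interval 1.31 to 1.97) and XBP1 (1.03, 0.94 to 1.12). Of all genes kept, 7.12% were at least 2-fold higher, and of those with at least 100 counts 3.13%. With DESeq2 size factors XBP1 and CRELD2 were below 2-fold. ERN1, the next farthest from 0, had 0.25 and ATF6 had 0.08. Of 10 genes of ER-associated degradation, 9 had enough counts, and 1 of them, EDEM3 (1.10, 95% interval 0.97 to 1.23), was at least 2-fold higher. HERPUD1 (0.78) and SYVN1 (-0.59) followed, and the median was 0.10. Of 12 cytosolic chaperones, HSPH1 was past 2-fold, HSPA8 (0.82) and DNAJA1 (0.77) followed, and the median was 0.36. None of 7 mitochondrial chaperones was past 2-fold, with a median of 0.21, and GRPEL1 (0.78), HSPE1 (0.43) and HSPD1 (0.34) were the farthest from 0. No gene of these 9 lists was at least 2-fold lower, against 4.83% of all genes kept and 2.92% of those with at least 100 counts. The medians are descriptions of these libraries, and the difference between lists was not tested.

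**Figure D5:**
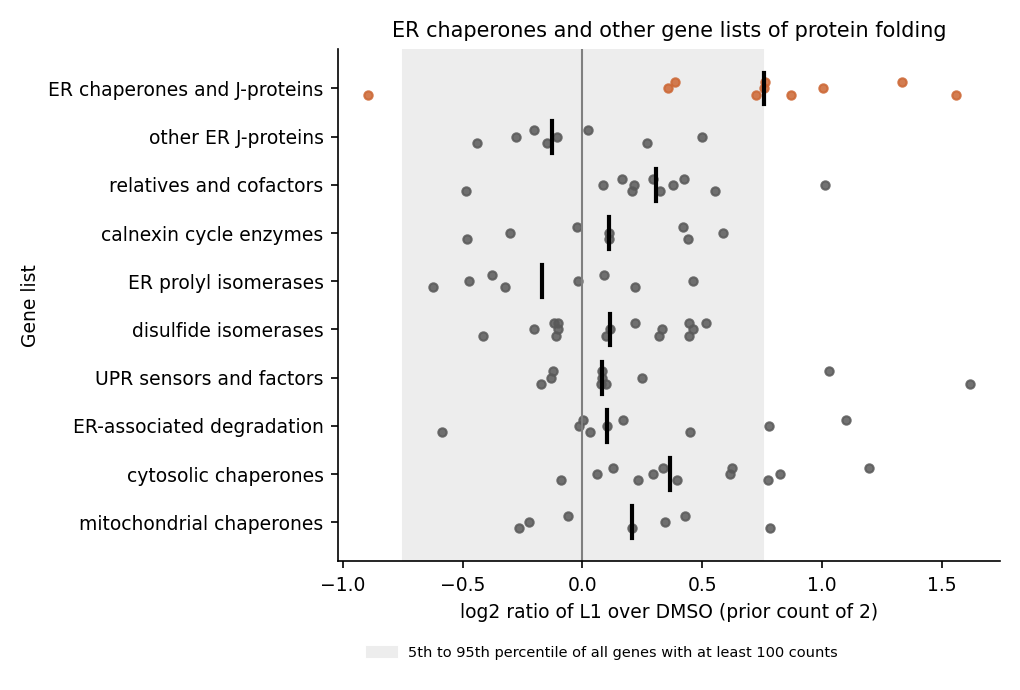
The log2 ratio of L1 over DMSO with a prior count of 2 (horizontal axis) for the 10 ER chaperone genes (orange) and the genes of 9 other lists (grey), 1 point a gene with at least 10 counts, black bars marking list medians; CLGN, at 0 counts with DMSO, is left out as a point. The grey band runs from -0.75 to 0.75, the 5th to 95th percentile of all genes with at least 100 counts, which is the spread of single genes and not of list medians, and the list medians run from -0.17 for the prolyl isomerases to 0.76 for the ER chaperones.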

How the data were processed

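RNA of HEL cells was captured on mRNA beads and sequenced as 1 library per condition. The submitters' processing notes name fastp (version 2.0), HISAT2 (version 2.1.0), StringTie and build hg38. The annotation, the counting program and the use of strand are not given in the sources used here. The authors deposited raw read counts for 61806 genes, with no normalization, and FPKM values for 13924 genes, whose gene lengths are not stated. The log2 ratios of the FPKM equal those of the counts scaled here.

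Counts were scaled by TMM in edgeR 4.0.16 (R 4.3.3), and size factors came from DESeq2 1.42.0. Further steps used Python 3.11.15, numpy 2.4.6, pandas 2.3.3, scipy 1.17.1 and matplotlib 3.10.9. Genes with at least 10 counts in 1 library were kept, and a prior count of 2 was added for comparisons across genes. Positions, exons and transcript lengths came from GENCODE release 29 (GRCh38), in which 58254 of the 61806 genes were found, and shared 31-base words were counted on both strands. Implied lengths are counts over FPKM. All 120 genes of the lists were matched to the tables by symbol. RefSeq promoter windows were found for all 10 chaperone genes, and protein sequences were not used here. The scripts were tested on simulated libraries.

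The 10 genes and all lists were chosen with earlier results of these data known. Named are the 10 genes, their relatives in other compartments and overlapping genes. In each list other than the cell markers, the 3 genes farthest from 0 and those past 2-fold, with at least 100 counts in a library, are named too. This rule was not applied to the cell markers. Among the erythroid and megakaryocytic markers, HBG1 was at least 2-fold higher (log2 ratio 1.78) and TFRC at least 2-fold lower (-1.25). The alternatives were other scalings, FPKM, prior counts, filters, thresholds and overlapping or word-sharing genes summed. The opposite-strand sums, the word-sharing sums and the principal transcript length were added after the data were seen.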

Additional observations from a re-analysis of the deposited data

How the results depend on the processing

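No paired analysis was possible because neither condition has a replicate. Depth limits DNAJB9 (300 and 332 counts) and SDF2L1 (287 and 454) most. Other scalings moved every log2 ratio alike, by 0.05 with total counts, 0.04 with the upper quartile and -0.03 with DESeq2 size factors. The median of the 10 genes ran from 0.72 with log2(FPKM + 1) to 0.81 with total counts. Under each scaling, prior count, filter and FPKM value, 9 of the 10 stayed above 0. These settings could hardly change that number, since all 10 genes passed each filter and the log2 ratio nearest 0 was 0.36 (DNAJB9). Summed with THAP5, DNAJB9 was at 0.0036. With a 1.5-fold threshold, 7 of the 10 genes were higher and 1 lower.

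Over the 9 other lists, whose sizes are given above, 6 genes were at least 2-fold higher and 0 lower. Of all genes kept, 7.12% were at least 2-fold higher and 4.83% lower, and no result about the lists is drawn from these counts. The list numbers were 13 and 2 at 1.5-fold, against 13.8% and 11.4% of all genes kept. With DESeq2 size factors 4 were higher, which left XBP1 and CRELD2 below 2-fold. With log2(FPKM + 1) 2 were higher, and 3 with the whole interval past 2-fold. Over all genes kept, 1290 were at least 2-fold higher and 876 lower. The numbers were 407 and 361 on the FPKM ratio, 199 and 153 with log2(FPKM + 1), 387 and 361 with at least 100 counts, 3544 and 1811 with no filter, 2506 and 2065 at 1.5-fold, 547 and 350 with the whole interval past 2-fold, and 688 and 502 for protein-coding genes. The filters and the limit to protein-coding genes change how many genes enter, and the cause of the moves with FPKM was not tested.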
